A study of Mus musculus with 16 samples.

Results

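The 10 genes described here encode subunits of the transcription factor NF-kappaB and the proteins that restrain it. Nfkb1, Nfkb2, Rel and Relb encode subunits, Nfkbia, Nfkbie, Nfkbiz and Bcl3 encode members of the IkB family, and Tnfaip3 and Tnip1 encode the ubiquitin-editing enzyme A20 and its binding partner ABIN1. They were chosen by name, as the rows of the count table whose Ensembl identifier maps to these symbols. All 10 were found among the 19449 genes of the table, and all 10 passed the filter on low counts, which kept 16269 genes.

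NF-kappaB dimers are held in the cytoplasm by IkB proteins until receptors such as TLR4, the sensor of bacterial lipopolysaccharide (LPS), activate the IkB kinase complex. The IkB protein is then degraded and the dimer enters the nucleus. Several of its best-known target genes encode inhibitors of the same pathway, among them Nfkbia and Tnfaip3, so that the circuit is known for switching itself off after a stimulus. In the brain, microglia and endothelial cells are known to use this pathway when they meet LPS or the cytokines that follow it.

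The values are RNA levels in the hippocampus of 3-month-old mice, in 4 groups of 4 libraries each: Tspo knockout mice injected with LPS, wild-type mice injected with LPS, knockout mice injected with PBS (the vehicle) and wild-type mice injected with PBS. Tspo encodes the translocator protein of the outer mitochondrial membrane. The knockout allele, the strain, the sex, the route and dose of LPS and the interval before collection are not given in these sources. It is also not stated that the replicates are separate animals, so n counts libraries and the p-values measure the spread between them.

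Library totals ran between 30198619 and 50009041 counts. Tspo stood at 0.49, 0.37, 0.27 and 0.21 CPM (counts scaled to library size by TMM) in knockout LPS replicates 1 to 4, and at 2.63, 11.9, 9.40 and 10.1 CPM in wild-type LPS. It stood at 2.33, 0.15, 0.28 and 0.47 CPM in the libraries labelled knockout PBS, against 2.52, 2.59, 2.06 and 5.17 CPM in wild-type PBS. The library labelled knockout PBS replicate 1 thus lay within the wild-type PBS range, and its label is in doubt wherever the knockout PBS group is used. Wild-type LPS replicate 1 lay within or below the wild-type PBS range in Tspo, Nfkb2, Nfkbia, Nfkbiz, Bcl3 and Tnfaip3. By their Y-linked counts 6 libraries came from males, namely knockout LPS replicates 3 and 4, wild-type LPS replicate 1, knockout PBS replicates 2 and 3 and wild-type PBS replicate 4. Wild-type LPS replicates 2, 3 and 4 were thus all female, and they share a code in their titles with knockout PBS replicate 4 but with no other library; the meaning of the codes is not given. No code occurs in both genotypes under LPS, so code and genotype cannot be told apart there. Within wild type, only LPS replicate 1 and PBS replicate 4 share a code. For the other wild-type libraries code and LPS cannot be told apart.

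The promoters of 7 of the 10 genes were found in the RefSeq table of the GRCm38.p6 build, which gives 250 bases before and 50 bases after each start site. Nfkb1, Relb and Nfkbiz had no entry. In 6 of the 7 genes, at least 1 promoter held a match on either strand to the NF-kappaB consensus of 10 bases, against 1769 of 27025 genes (6.55%) with at least 1 such promoter. Counted by promoter, 8 of their 10 windows held a match, against 1907 of all 32851 (5.8%). The gene without a match in these windows was Nfkbie. The stretches below run for 150 bases, from 100 before to 50 after the start site, 5′ to 3′ on the gene's own strand, with the matches in capitals. They are shown for the genes with a match, so that those that passed after LPS can be set beside Rel and Tnfaip3. Both held matches and passed in no comparison in the main edgeR fit of all libraries. Tnfaip3 was called higher after LPS in wild type by limma-voom with sample weights.

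Nfkb2, chr19:46304637-46304786, plus strand: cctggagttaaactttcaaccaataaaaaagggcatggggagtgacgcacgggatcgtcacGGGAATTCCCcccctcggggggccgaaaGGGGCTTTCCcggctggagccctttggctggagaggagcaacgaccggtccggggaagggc
Rel, chr11:23770920-23771069, minus strand: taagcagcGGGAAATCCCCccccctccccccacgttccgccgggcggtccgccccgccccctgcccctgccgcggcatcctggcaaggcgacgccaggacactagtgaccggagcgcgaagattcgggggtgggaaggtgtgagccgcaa
Nfkbia, chr12:55492598-55492747, minus strand: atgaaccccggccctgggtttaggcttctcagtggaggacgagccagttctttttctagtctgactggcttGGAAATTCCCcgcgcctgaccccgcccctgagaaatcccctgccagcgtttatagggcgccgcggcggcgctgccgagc
Bcl3, chr7:19822706-19822855, minus strand: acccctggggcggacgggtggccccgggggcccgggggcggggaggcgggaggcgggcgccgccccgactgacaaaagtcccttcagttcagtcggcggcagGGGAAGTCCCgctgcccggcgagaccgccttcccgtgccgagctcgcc
Tnfaip3, chr10:19015361-19015510, minus strand: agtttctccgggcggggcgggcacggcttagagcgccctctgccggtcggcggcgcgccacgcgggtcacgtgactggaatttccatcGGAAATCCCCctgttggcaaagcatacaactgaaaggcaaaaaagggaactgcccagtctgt
Tnip1, chr11:54962891-54963040, minus strand: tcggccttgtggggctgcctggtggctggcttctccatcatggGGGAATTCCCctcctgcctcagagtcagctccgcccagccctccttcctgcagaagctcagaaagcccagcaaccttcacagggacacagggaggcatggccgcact

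The match in Bcl3 began 3 bases after its start site, and that in Tnfaip3 12 bases before it. Nfkbia held its match 29 bases upstream and Tnip1 57 bases upstream. In Rel, 2 overlapping matches began 92 and 91 bases upstream. Nfkb2 had the most, with matches 39 and 11 bases upstream of its first start site and a further one, GGGACTTTCC at chr19:46305705-46305714, beside its other annotated starts. The narrower motif of GGGA, any base and TTTCC was found in 126 of 27025 genes (0.466%) and in 2 of the 7 here, Nfkb2 and Nfkbia. A match describes letters in a window and is not evidence of binding.

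After LPS, 5 of the 10 genes rose in the wild-type hippocampus: Bcl3, Nfkb2, Nfkbia, Nfkbiz and Tnip1. None of the 10 fell, and all 10 had a positive log2 fold change. Of all genes tested, 4.72% were called higher in the same comparison. The median log2 fold change was 0.47 over the 10 genes and 0.002 over all genes. In the knockout none of the 10 passed in edgeR or DESeq2, and none had an unadjusted edgeR p below 0.05. None of the 16269 genes passed there in edgeR (0%), with 1120 at an unadjusted p below 0.05, and 3 passed in DESeq2. Fitted on the 8 wild-type libraries alone, none of the 10 genes passed in edgeR, the smallest adjusted p being 0.0874 in Bcl3. Over all groups, edgeR called 6 of the 10 genes without wild-type LPS replicate 1, 1 without its replicate 2 or 3 and 2 without its replicate 4. It called 1 without wild-type PBS replicate 2 and 2 without wild-type PBS replicate 3. The calls over all genes moved in the same fits: edgeR called 1394 with every library and 3380 without wild-type LPS replicate 1. It called 758, 538 and 694 without replicates 2, 3 and 4 of that group, and 625 and 621 without wild-type PBS replicates 2 and 3. In the fit of the 8 wild-type libraries edgeR called no gene at all, with 3012 of 15801 at an unadjusted p below 0.05, 6 of the 10 genes among them. The levels are from whole tissue, where fewer cells of a type and less RNA per cell cannot be told apart.

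Among the subunits, only Nfkb2 passed in the main edgeR fit. Nfkb2 (ENSMUSG00000025225, chr19:46304320-46312385, plus strand of GRCm38 in GENCODE M21) encodes p100, the precursor of the p52 subunit of the noncanonical branch, which also acts as an inhibitor. It stood at 4.91, 3.66, 4.03 and 4.23 CPM in knockout LPS replicates 1 to 4, and at 3.82, 11.5, 10.4 and 10.9 CPM in wild-type LPS. In PBS it stood at 3.80, 4.16, 4.76 and 3.76 CPM in the knockout and at 4.21, 4.40, 4.78 and 4.66 CPM in wild type. Wild-type LPS replicates 2, 3 and 4 lay above every other library, and replicate 1 of that group was below its wild-type PBS range. In wild type the log2 fold change, LPS over PBS, was 1.03 ± 0.24 (SE; edgeR adjusted p = 0.0199), and without wild-type LPS replicate 1 it was 1.28 (edgeR adjusted p = 2.03e-06). The call was lost in 7 of 27 alternatives. In the knockout it was 0.03 ± 0.25 (edgeR adjusted p = 0.978), with a 95% interval of -0.45 to 0.51. The exons of Nfkb2 share 299 of 4584 bases with those of Psd on the opposite strand. They share 531 with those of AC114539.1, also on the opposite strand, which was not analysed here. No source states that the counting used strand. Psd stood at 436 to 524 CPM in knockout LPS, 463 to 577 in wild-type LPS, 440 to 545 in knockout PBS and 365 to 549 CPM in wild-type PBS, and its own change after LPS in wild type did not pass (0.27 ± 0.12; edgeR adjusted p = 0.178).

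Nfkb1, which encodes the p105 precursor of the p50 subunit, was among the steadiest of the 10 genes. Its 16 libraries spanned 19.3 to 26.2 CPM, a range of 0.44 on the log2 scale, against 1.64 for Nfkb2. In wild type its log2 fold change after LPS was 0.10 ± 0.08 (SE; edgeR adjusted p = 0.456). The ratio of Nfkb2 to Nfkb1, each as a count per length of its longest coding transcript, was 0.491, 0.488 and 0.447 in wild-type LPS replicates 2, 3 and 4. It was 0.192 in replicate 1 of that group and between 0.189 and 0.242 in all other libraries. The ratio restates the rise of Nfkb2 beside a steady Nfkb1 in wild-type LPS replicates 2, 3 and 4, and is not a separate result.

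Rel, which encodes the c-Rel subunit best known from lymphocytes, did not pass in any comparison. It averaged 6.75 ± 1.17 CPM in knockout LPS, 6.42 ± 0.43 in wild-type LPS, 6.35 ± 0.96 in knockout PBS and 5.67 ± 0.63 CPM in wild-type PBS (SD, n = 4 each). Relb encodes the partner of p52 in the noncanonical pathway. It averaged 5.70 ± 0.37 CPM in knockout LPS, 7.09 ± 1.34 in wild-type LPS, 6.55 ± 1.39 in knockout PBS and 5.48 ± 0.98 CPM in wild-type PBS (SD, n = 4 each). The 4 groups of Relb overlapped, with the highest single values in knockout PBS replicate 4 (8.59 CPM) and wild-type LPS replicate 4 (8.49 CPM). Its log2 fold change after LPS was 0.37 ± 0.16 in wild type (SE; edgeR adjusted p = 0.176). Among the 10 female libraries alone, a choice made after seeing the data, it was 0.58 (edgeR adjusted p = 0.0292). Fitted on all libraries, limma-voom with sample weights also called Relb higher after LPS in wild type. It called 15.2% of all genes higher there.

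The IkB family members divided into 3 that rose and 1 that did not pass. Bcl3 (ENSMUSG00000053175, chr7:19808462-19822770, minus strand) had the largest fold change of the 10 genes. It encodes a nuclear IkB protein that binds p50 and p52 dimers on DNA. It held 11, 10, 3 and 15 counts in knockout LPS replicates 1 to 4 (0.27, 0.24, 0.08 and 0.45 CPM), and 11, 208, 146 and 166 counts in wild-type LPS (0.34, 4.16, 4.29 and 4.21 CPM). In PBS it held 12, 13, 14 and 13 counts in the knockout and 5, 14, 11 and 16 counts in wild type. Bcl3 was thus barely detected in every library except wild-type LPS replicates 2, 3 and 4, whose CPM values lay close together. Its log2 fold change in wild type was 3.25 ± 0.61 (SE; edgeR adjusted p = 0.00638), and 3.62 without wild-type LPS replicate 1 (edgeR adjusted p = 8.28e-06). In the knockout it was -0.53 ± 0.66 (edgeR adjusted p = 0.845), with a 95% interval of -1.82 to 0.76, against 2.05 to 4.45 in wild type. The test of a difference between these responses, the interaction, did not pass in Bcl3 (edgeR adjusted p = 0.0517). Its exons share 161 of 2475 bases with an antisense gene, Gm16175, which was not analysed here.

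Nfkbiz (ENSMUSG00000035356, chr16:55811375-55838899, minus strand) encodes IkB-zeta, a nuclear cofactor needed for a second wave of NF-kappaB targets. It stood at 7.03, 7.56, 5.78 and 7.75 CPM in knockout LPS replicates 1 to 4, and at 7.36, 17.2, 14.8 and 13.5 CPM in wild-type LPS. In PBS it stood at 7.33, 9.01, 7.47 and 9.46 CPM in the knockout and at 7.40, 7.15, 8.0 and 8.52 CPM in wild type. The split was that of Nfkb2, with wild-type LPS replicates 2, 3 and 4 above all others. In wild type the log2 fold change was 0.77 ± 0.19 (SE; edgeR adjusted p = 0.0244), and in the knockout -0.24 ± 0.20 (edgeR adjusted p = 0.756). The wild-type call was lost in 7 of 27 alternatives, the same number as for Nfkb2.

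Nfkbia (ENSMUSG00000021025, chr12:55489410-55492647, minus strand) encodes IkB-alpha, the inhibitor that is degraded and then made anew in each round of NF-kappaB activity. It stood at 14.8, 17.9, 17.4 and 17.8 CPM in knockout LPS replicates 1 to 4, and at 16.7, 47.2, 32.2 and 37.4 CPM in wild-type LPS. In PBS it stood at 17.1, 13.7, 12.6 and 18.4 CPM in the knockout and at 21.9, 20.7, 20.5 and 14.3 CPM in wild type. Here too the 3 female wild-type LPS libraries were the highest, while the wild-type PBS libraries varied more among themselves (SD 0.28 on the log2 scale) than those of Nfkb2 (0.08). The log2 fold change in wild type was 0.79 ± 0.23 (SE) with an edgeR adjusted p of 0.04997, just inside the threshold, and the call was lost in 20 of 27 alternatives. In the knockout it was 0.14 ± 0.24 (edgeR adjusted p = 0.889).

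Nfkbie encodes IkB-epsilon, a slower inhibitor that is known to damp late oscillations of the pathway. It averaged 2.19 ± 0.19 CPM in knockout LPS, 2.63 ± 0.49 in wild-type LPS, 2.83 ± 1.33 in knockout PBS and 2.36 ± 0.45 CPM in wild-type PBS (SD, n = 4 each). The single highest value, 4.79 CPM, was that of knockout PBS replicate 2, and no comparison of Nfkbie passed.

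Tnip1 (ENSMUSG00000020400, chr11:54910785-54962917, minus strand) encodes ABIN1, which brings A20 to its ubiquitinated substrates. It stood at 26.05, 26.7, 25.7 and 24.1 CPM in knockout LPS replicates 1 to 4, and at 29.0, 29.1, 29.2 and 28.5 CPM in wild-type LPS. In PBS it stood at 24.8, 23.4, 24.6 and 23.5 CPM in the knockout and at 23.7, 23.0, 26.9 and 25.4 CPM in wild type. The 4 wild-type LPS libraries, replicate 1 included, were the highest of the 16. Tnip1 was the only 1 of the 10 genes whose wild-type LPS and PBS libraries did not overlap, in a comparison where 4.22% of all genes lay apart and higher. The change was small, with a log2 fold change of 0.23 ± 0.055 in wild type (SE; edgeR adjusted p = 0.0204) and 0.09 ± 0.055 in the knockout (edgeR adjusted p = 0.71). The wild-type call was lost in 4 of 27 alternatives.

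Tnfaip3 (ENSMUSG00000019850, chr10:19000910-19015657, minus strand) encodes A20, which removes the ubiquitin chains that carry the signal to the IkB kinases. It stood at 8.12, 7.58, 7.62 and 7.93 CPM in knockout LPS replicates 1 to 4, and at 6.84, 12.1, 12.2 and 12.95 CPM in wild-type LPS. In PBS it stood at 6.29, 4.52, 9.04 and 7.62 CPM in the knockout and at 7.48, 8.50, 7.37 and 6.60 CPM in wild type. Wild-type LPS replicates 2, 3 and 4 again lay above the other 13 libraries. With replicate 1 in the group, the wild-type log2 fold change of 0.56 ± 0.20 did not pass in edgeR (SE; edgeR adjusted p = 0.0955). Without that library it was 0.73 and passed (edgeR adjusted p = 0.0062). In the knockout it was 0.19 ± 0.20 (edgeR adjusted p = 0.819). With every library in, limma-voom with sample weights called Tnfaip3 higher after LPS in wild type.

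**Figure D1:**
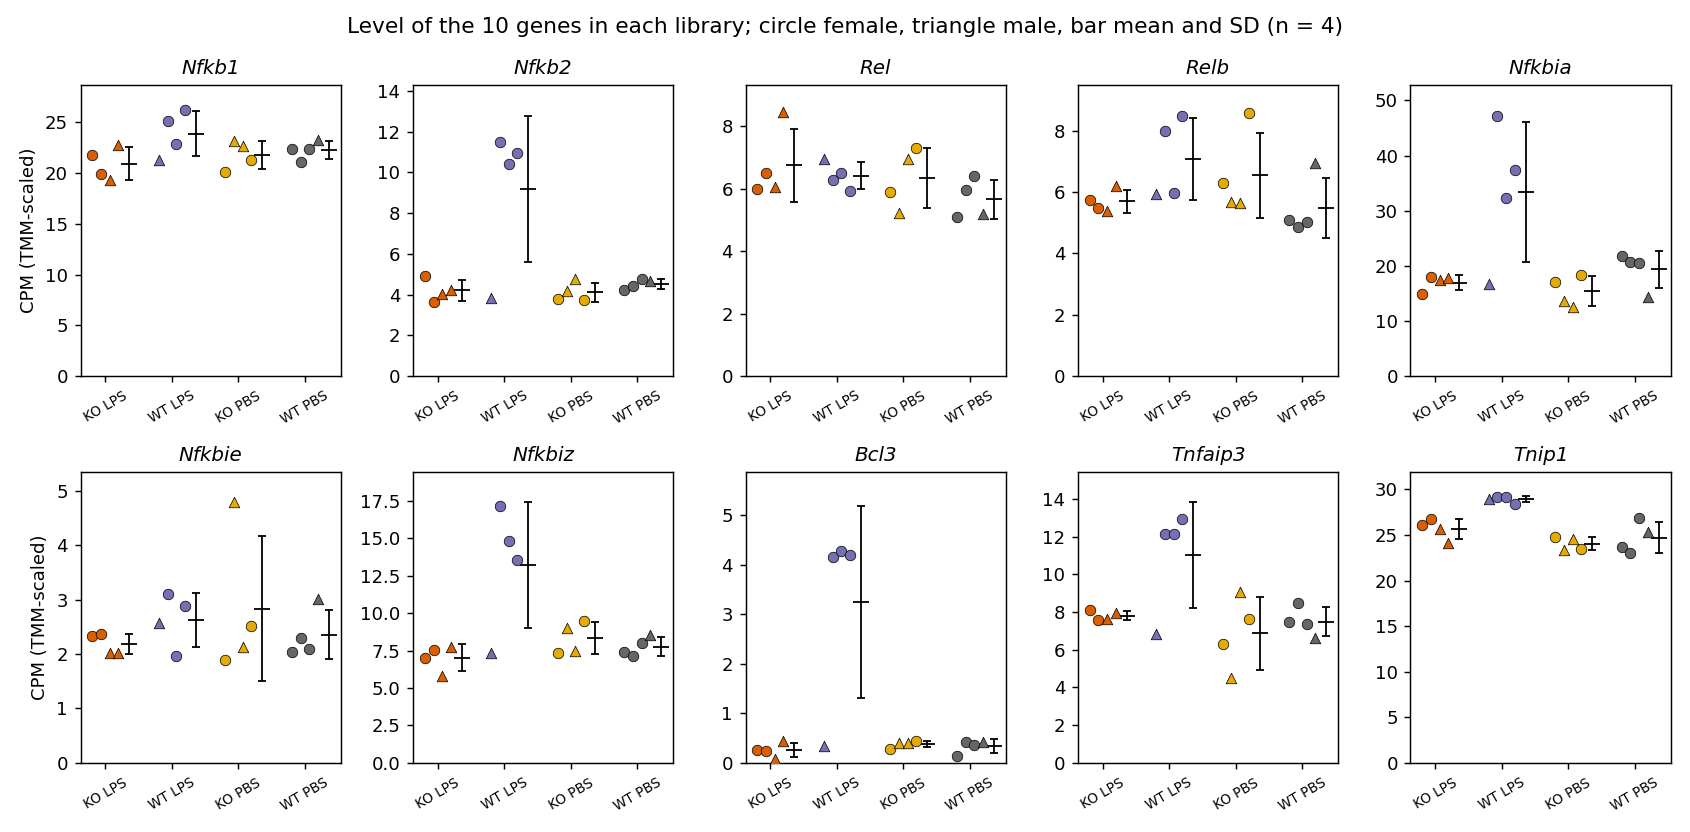
Level of each of the 10 genes in TMM-scaled CPM (vertical axes, from 0) in the 16 libraries, grouped as knockout LPS, wild-type LPS, knockout PBS and wild-type PBS. Circles are female and triangles male libraries as read from Y-linked counts, and the black bar is the mean with its SD (n = 4). In Nfkb2, Nfkbia, Nfkbiz, Bcl3 and Tnfaip3 the 3 female wild-type LPS libraries lie above the other 13.

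In 5 of the 10 genes (Nfkb2, Nfkbia, Nfkbiz, Bcl3 and Tnfaip3), wild-type LPS replicates 2, 3 and 4 were thus the 3 highest libraries of the series. These libraries were set apart after their values had been seen. How many of all genes share this pattern, or the directions given below, was not counted. Without replicate 1 of that group, edgeR called 10.9% of all genes higher after LPS in wild type. Replicate 1 was the lone male of its group. Among wild-type females, 3 LPS against 3 PBS libraries, all 10 genes were higher after LPS, by 3.64 in Bcl3, 1.29 in Nfkb2, 1.0 in Nfkbiz, 0.87 in Nfkbia and 0.67 in Tnfaip3 (differences of mean log2 CPM). Between the single LPS and the single PBS male, which also share a title code, 4 of 10 genes were higher after LPS. A single male in each group gives no test, and whether sex or the library itself sets that difference was not tested. In the knockout, 5 of 10 genes were higher after LPS among the females and 5 of 10 among the males (2 LPS against 2 PBS libraries in each). Within the title code of the 3 wild-type LPS libraries, 8 of 10 genes were higher in them than in knockout PBS replicate 4, with Bcl3 apart by 3.12 and Nfkb2 by 1.53 on the log2 scale.

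**Figure D2:**
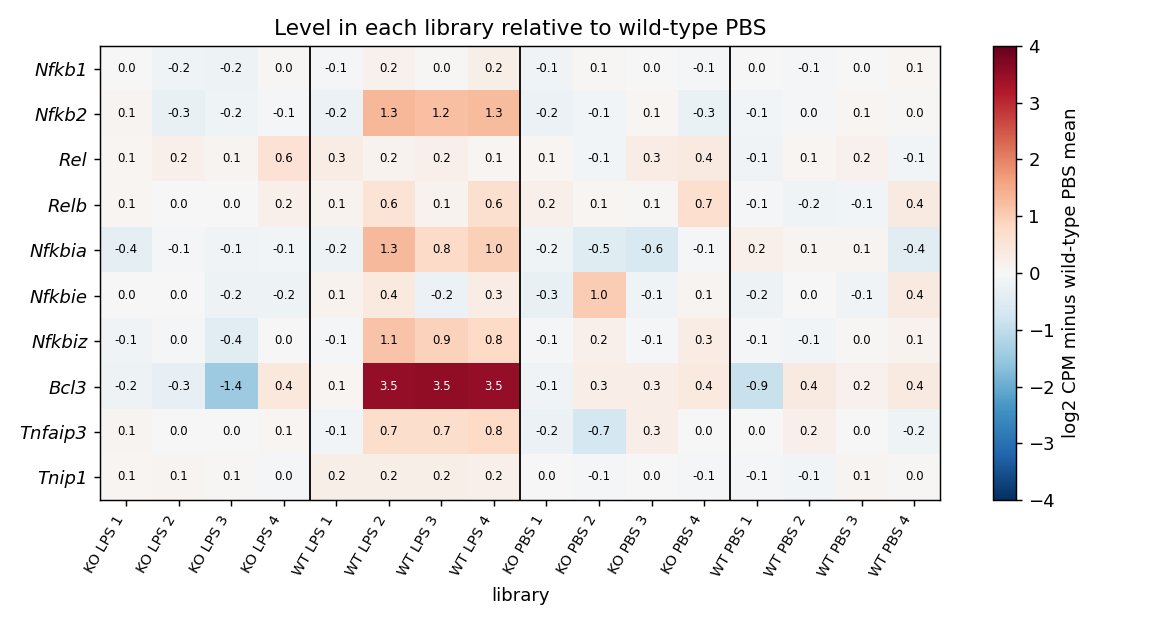
Log2 CPM of the 10 genes (rows) in each of the 16 libraries (columns) minus the mean of the wild-type PBS libraries, with red for higher and blue for lower. Wild-type LPS replicates 2, 3 and 4 form a red block in 5 rows, with Bcl3 deepest, and the knockout LPS columns hold no such block.

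The next contrast set knockout against wild-type LPS libraries. These groups share no title code, so code and genotype cannot be told apart in it. The wild-type side of that contrast also served for the LPS effect above, so the 2 sets of values are not independent. In it, 4 of the 10 genes were lower in the knockout (Bcl3, Nfkb2, Nfkbia and Nfkbiz) and none was higher. Of all genes, 7.28% were called lower. Bcl3 had the largest log2 fold change, knockout over wild type, of -3.64 ± 0.63 (SE; edgeR adjusted p = 0.00396). It was -1.13 ± 0.25 in Nfkb2 (edgeR adjusted p = 0.011), -0.98 ± 0.23 in Nfkbia (edgeR adjusted p = 0.017) and -0.91 ± 0.19 in Nfkbiz (edgeR adjusted p = 0.00986).

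Tnip1 missed the threshold in this comparison, with -0.17 ± 0.055 (SE; edgeR adjusted p = 0.0502), although its 4 knockout LPS libraries all lay below the 4 of wild-type LPS. Of all genes, 6.98% lay apart in that direction. Tnfaip3 had -0.50 ± 0.20 (edgeR adjusted p = 0.113), and without wild-type LPS replicate 1 it passed at -0.67 (edgeR adjusted p = 0.00901). Without that library 7 of the 10 genes were lower in the knockout, Nfkb1 and Tnip1 among them, while the share of all genes called lower was 13.3% without it and 7.28% with it. Nfkbia no longer passed without wild-type LPS replicate 2, and only Bcl3 of the 10 passed when the 8 LPS libraries were fitted alone. In the fit of those 8 libraries 1.37% of all genes were called lower. Rel alone had a positive log2 fold change (0.07 ± 0.13; edgeR adjusted p = 0.765).

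Under PBS the knockout did not differ detectably from wild type in any of the 10 genes, and 6 of all genes passed (0.0369%). The log2 fold changes, knockout over wild type, ran between -0.33 in Nfkbia and 0.26 in Nfkbie. The 95% interval, not adjusted for the number of genes tested, was -0.62 to 0.35 for Nfkb2 and -1.13 to 1.41 for Bcl3. Differences within those bounds remain possible with 4 libraries per group. The library labelled knockout PBS replicate 1 is part of this group, and leaving it out left the count at 0 of 10 genes.

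The interaction term tests directly whether the response to LPS differed between the genotypes. None of the 10 genes passed, while 4 had an unadjusted edgeR p below 0.05 and all 10 had a negative value, meaning a lower log2 fold change after LPS in the knockout than in wild type. Of all genes, 187 passed (1.15%), and 3520 of 16269 had an unadjusted edgeR p below 0.05. The median value was -0.55 over the 10 genes and -0.01 over all genes. The nearest to the threshold were Bcl3 at -3.78 ± 0.90 (SE; edgeR adjusted p = 0.0517), Nfkbiz at -1.01 ± 0.27 (edgeR adjusted p = 0.0679) and Nfkb2 at -0.99 ± 0.35 (edgeR adjusted p = 0.121). This count moved with the method and with single libraries. DESeq2 called 2 of the 10 genes, limma-voom with sample weights called 4, and edgeR called 4 without wild-type LPS replicate 1: Nfkb2, Nfkbia, Nfkbiz and Bcl3. Without wild-type PBS replicate 4 it called 2 of them, Nfkbiz and Bcl3. Over all genes the same fits called 1278 in DESeq2, 4029 in limma-voom, 2655 without wild-type LPS replicate 1 and 947 without wild-type PBS replicate 4, so the members' counts moved together with those of all genes.

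**Figure D3:**
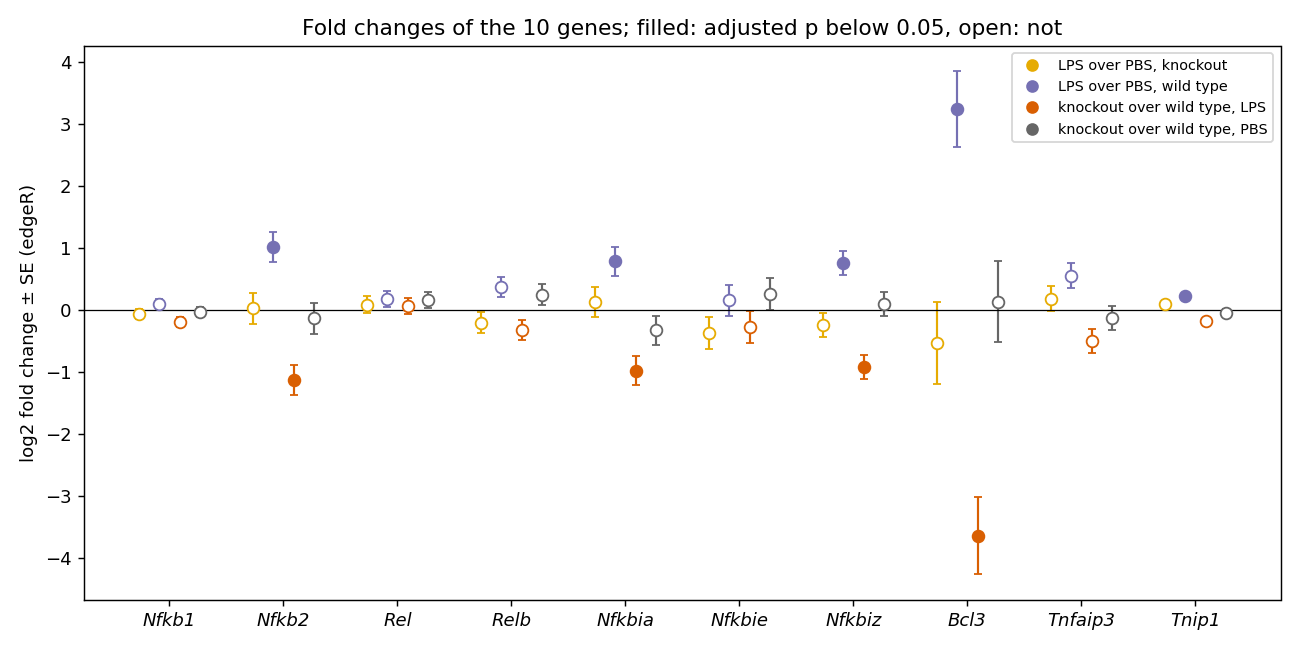
Log2 fold change with its SE (vertical axis, edgeR) of each gene for LPS over PBS in the knockout and in wild type, and for knockout over wild type under LPS and under PBS. Filled points have an adjusted p below 0.05. The wild-type LPS points of Bcl3, Nfkb2, Nfkbia, Nfkbiz and Tnip1 are filled and above 0, and the knockout LPS-over-PBS points are all open, between -0.53 and 0.19.

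The other genes of the pathway were described from 5 lists of 70 genes, ordered by role, of which 64 passed the filter. In wild type 20 of the 64 rose after LPS and none fell, where 4.72% of all genes were called higher. None of the 20 calls was made in edgeR when the 8 wild-type libraries were fitted alone, with 30 of the 64 at an unadjusted p below 0.05. In the knockout none passed in edgeR or DESeq2, with 6 at an unadjusted edgeR p below 0.05 (1120 of all 16269 genes). Under LPS 21 were lower and 4 higher in the knockout than in wild type, where 7.28% of all genes were called lower and 4.61% higher. With the 8 LPS libraries fitted alone 4 were lower and none higher, where 1.37% of all genes were called in each direction. Under PBS none passed in edgeR or DESeq2, with 4 at an unadjusted edgeR p below 0.05 (841 of all 16269 genes). There limma-voom called 3 of them, and 308 of all genes (1.89%). The genes outside the filter were Tnip3, Sele, Ccl2, Tnf, Il6 and Saa3, so the cytokine genes Tnf and Il6 and the chemokine gene Ccl2 were not tested here.

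Of the 11 upstream receptors 5 rose in wild type, with a median log2 fold change of 0.63. Tnfrsf1a, the main receptor of the cytokine TNF, rose by 1.18 ± 0.22 (log2, SE; edgeR adjusted p = 0.00649). Cd14, which hands LPS to TLR4, rose by 1.74 ± 0.33, and Tlr2, a receptor of bacterial lipoproteins, by 2.41 ± 0.53. Tnfrsf1b, the second TNF receptor, rose by 0.95 ± 0.20. The LPS receptor gene itself, Tlr4, did not pass (0.63 ± 0.25; edgeR adjusted p = 0.13). Of the same 11 genes 6 were lower in the knockout under LPS, among them these 4.

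Of the 24 adaptors and kinases 3 rose in wild type, and their median of 0.10 was near that of all genes. The 3 were Ikbke, an IkB-kinase-related kinase (1.10 ± 0.24), Ticam2, which links TLR4 to its second adaptor (1.34 ± 0.36), and Map3k8, a kinase held by p105 (0.76 ± 0.23). Ikbke was the single pathway gene whose interaction passed, at -1.56 ± 0.34 (SE; edgeR adjusted p = 0.04997), among the 187 of all genes (1.15%) that passed. That call lay at the threshold and was lost in 20 of 26 alternatives, over which its adjusted p ran between 0.0012 and 0.119 in edgeR, DESeq2 and limma-voom. It was lost without any 1 of the 4 knockout LPS libraries or the 4 knockout PBS libraries, without wild-type LPS replicate 2, 3 or 4, and without wild-type PBS replicate 1, 2 or 3. The remaining subunit gene Rela and the IkB genes Nfkbib and Nfkbid did not pass in any comparison.

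Among the other brakes of the pathway 3 of 12 rose in wild type and the median was 0.01. These were Zc3h12a, the RNase that degrades cytokine transcripts (1.45 ± 0.33), Tnfaip8l2 (0.97 ± 0.24) and Tnip2, a relative of Tnip1 (0.63 ± 0.15). In this list the comparison under LPS went both ways, with 2 genes lower and 3 higher in the knockout. Of the 14 target genes outside the circuit 9 rose in wild type, with a median of 1.01, and 11 were lower in the knockout under LPS. Icam1, an adhesion molecule for leukocytes, stood at 1.95, 1.46, 1.62 and 4.32 CPM in knockout LPS and at 3.05, 27.2, 23.9 and 26.2 CPM in wild-type LPS. Its pattern over the libraries was that of Bcl3, with wild-type LPS replicates 2, 3 and 4 apart. Tap1, a peptide transporter of antigen presentation, rose by 1.95 ± 0.40, Il1b, the gene of interleukin-1-beta, by 1.98 ± 0.43 and Cxcl1, a chemokine for neutrophils, by 5.58 ± 1.15 in wild type. Cxcl1 and Il1b were barely detected in wild-type PBS, at 0.027 to 0.12 and 0.12 to 0.27 CPM, so their fold changes rest on very few counts. In wild-type LPS replicates 1 to 4 Cxcl1 stood at 0.031, 4.06, 5.79 and 3.52 CPM, and Il1b at 0.27, 1.02, 1.03 and 0.73 CPM.

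**Figure D4:**
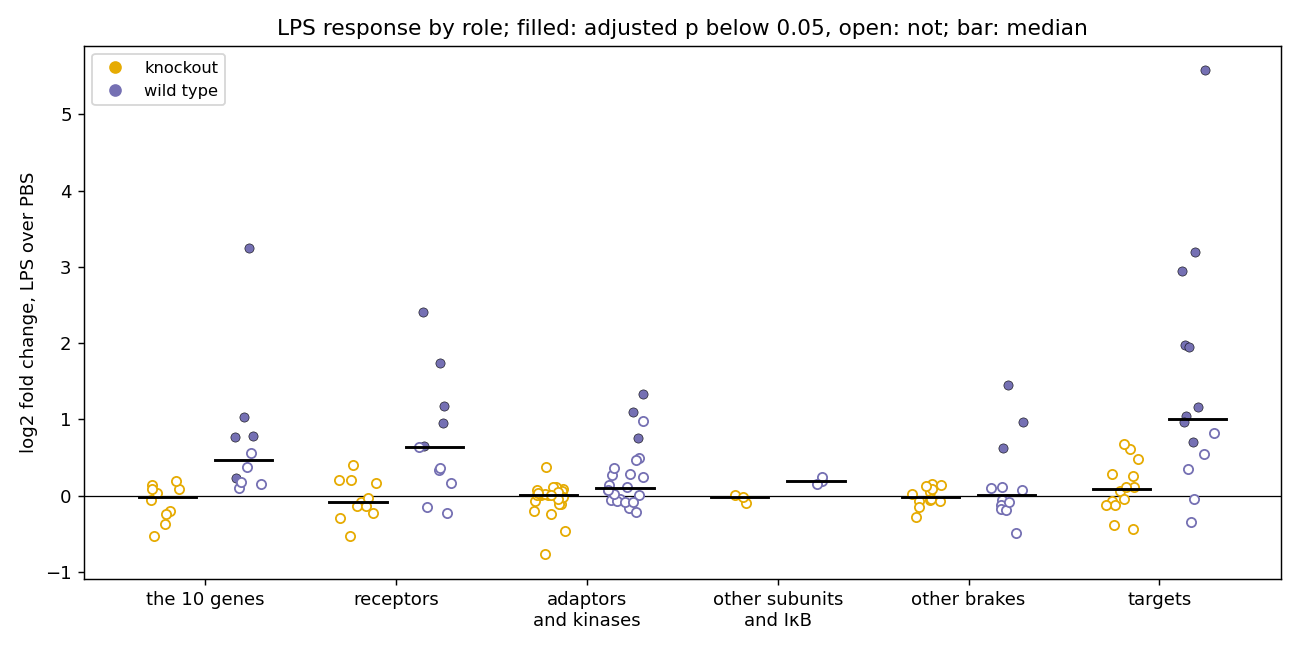
Log2 fold change after LPS over PBS (vertical axis, edgeR) of the 10 genes and of 5 lists of other pathway genes, in the knockout (left of each pair) and in wild type (right). Each point is a gene, filled where its adjusted p is below 0.05, and the bar is the median. The wild-type points of the target genes reach 5.58, in Cxcl1, which was barely detected in wild-type PBS. Their median is 1.01, while no knockout point is filled.

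The genes closest in pattern to the members that rose were sought among 13303 genes, by the root mean square difference of log2 CPM over 16 libraries, each relative to its wild-type PBS mean. For Bcl3 they were the interferon-induced genes Gbp4 and Ifitm3 (0.488 and 0.489). For Nfkb2 they were Eif2ak2, the RNA-sensing kinase PKR, and Msn, the actin linker moesin (0.157 and 0.158). For Nfkbia they were Ube2l6, which loads the ubiquitin-like ISG15, and the stress gene Ddit4 (0.184 and 0.195). Phf7 and Mvp were closest to Nfkbiz (0.128 and 0.139), and Dclre1c and Zfp879 to Tnip1 (both 0.074). Of these genes, Gbp4, Ifitm3, Eif2ak2, Msn and Mvp passed after LPS in wild type. Ube2l6, Ddit4, Phf7, Dclre1c and Zfp879 did not (edgeR adjusted p between 0.0704 and 0.264). Among the members themselves, Nfkb2 and Nfkbiz differed by 0.255, Nfkb2 and Nfkbia by 0.31, and Nfkbia and Nfkbiz by 0.314. Each had closer genes outside the circuit, but far more genes were searched there, so this says nothing about the circuit itself. The closest pair of members was Nfkb1 and Tnip1 (0.149), the 2 genes that varied least over the libraries.

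Per kilobase of the longest coding transcript, Nfkbia was the most abundant of the 10 transcripts in every group, with 10.8 ± 0.91 CPM per kb in knockout LPS, 21.2 ± 8.07 in wild-type LPS, 9.79 ± 1.75 in knockout PBS and 12.3 ± 2.15 in wild-type PBS (SD, n = 4 each). Tnip1 and Nfkb1 followed in that order, at 8.32 ± 0.59 and 5.41 ± 0.22 CPM per kb in wild-type PBS, where their libraries did not reach each other's level. Relb, Nfkbiz and Tnfaip3 lay next in wild-type PBS, at 2.48 ± 0.45, 1.89 ± 0.15 and 1.69 ± 0.18 CPM per kb, and the last pair did not differ beyond their spread. Below them came Nfkb2 at 1.17 ± 0.07, Nfkbie at 0.97 ± 0.18, Rel at 0.76 ± 0.08 and Bcl3 at 0.18 ± 0.07 CPM per kb. Nfkb2 and Nfkbie overlapped within their spread, and Bcl3 stood clearly last. In the 3 female wild-type LPS libraries Bcl3 reached 2.28 ± 0.035 CPM per kb (SD, n = 3), above Nfkbie (1.09 ± 0.25) and Rel (0.84 ± 0.04).

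Markers of other cell types varied with some of these groups, and their part in the results was not tested. Summed over 6 microglial markers, the level was 229.5 to 292 CPM in knockout LPS, 217 to 314 in wild-type LPS, 242 to 266 in knockout PBS and 215 to 259 CPM in wild-type PBS. The 4 ranges overlapped, and 1 of the 6 markers fell in wild type while none rose. Under LPS 1 of the 6 was higher and 1 lower in the knockout than in wild type. Over 5 endothelial markers it was 110 to 144 CPM in knockout LPS, 119 to 170 in wild-type LPS, 116 to 142 in knockout PBS and 149 to 191 CPM in wild-type PBS, with 1 of 5 lower after LPS in wild type and 2 of 5 lower, none higher, in the knockout under LPS. Over 5 astrocyte markers it was 3243 to 3733 CPM in knockout LPS, 3158 to 3440 in wild-type LPS, 3204 to 3414 in knockout PBS and 2990 to 3494 CPM in wild-type PBS. The astrocyte ranges overlapped, with 1 of 5 higher after LPS in wild type. Between the LPS groups 1 astrocyte marker was higher in the knockout and 1 was lower. Blood leukocyte markers were low in every library, at 0.195 to 1.82 CPM over 6 genes in knockout LPS, 0.977 to 13.5 in wild-type LPS, 0.522 to 0.671 in knockout PBS and 0.465 to 0.754 CPM in wild-type PBS. Of the 4 that passed the filter 3 rose in wild type and 2 were lower in the knockout under LPS, and wild-type LPS replicates 2, 3 and 4 held 8.98, 8.43 and 13.5 CPM against 0.977 in replicate 1. These are the same 3 libraries in which the NF-kappaB genes were high. Red blood cell markers, 3 genes, summed to 480, 273, 250 and 38.9 CPM in wild-type PBS replicates 1 to 4. The sum was 7.15 to 67.4 CPM in wild-type LPS, 8.05 to 114 in knockout LPS and 10.1 to 135 CPM in knockout PBS. Their median log2 fold change after LPS in wild type was -2.6, and none of the 3 passed in edgeR in any comparison. Of the oligodendrocyte markers 4 of 5 were lower after LPS in wild type, where 3.85% of all genes were called lower. Under LPS 4 of 5 were higher in the knockout, where 4.61% of all genes were called higher. Their sum was 5708 to 6135 CPM in knockout LPS, 5423 to 6623 in knockout PBS and 5521 to 7299 CPM in wild-type PBS. In wild-type LPS replicates 1 to 4 it was 3496, 6086, 3598 and 2584 CPM. Replicate 2 thus lay in the wild-type PBS range and replicate 1 below it, unlike the split of the NF-kappaB genes. Choroid plexus markers were lowest in wild-type LPS replicate 1 (13.5 CPM) and wild-type PBS replicate 1 (10.6 CPM), while the other 14 libraries held at least 559 CPM. Neuronal markers lay between 4525 and 5912 CPM in every library and were thus abundant in all of them, and none of the listed markers in the table was at 0 in every library. The leukocyte marker Ly6g was not analysed here.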

How the data were processed

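RNA of the hippocampus was sequenced in 16 libraries (NEBNext Ultra, per the labels' protocols). The deposited table holds estimated counts per gene and library that the authors gave as whole numbers. Per the submitters' processing notes the tools were MultiQC 1.13, Salmon 1.9.0, DESeq2 and DESeq, with no role named. The authors' genome build and annotation are not given in the sources used here. Of 19449 genes, 19329 matched a symbol. The remaining 120 identifiers, with 0.106% of the counts, stayed in the fit. The members and lists were chosen with earlier results of these data known.

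From these counts, low genes were removed by the filterByExpr rule (edgeR 4.0.16 in R 4.3.3); the 16269 genes retained carried 99.97% of all counts. Libraries were scaled by TMM. A quasi-likelihood model with 1 mean per group was fitted over all 16 libraries, and its F test was adjusted by the Benjamini-Hochberg method over all genes at 0.05. The biological coefficient of variation was 0.177. The SE is the log2 fold change divided by the root of F, and the 95% interval is normal. Log2 CPM uses a prior count of 2. The named genes were the 10 members, up to 4 called genes of each pathway list with the smallest p in wild-type LPS over PBS, Tspo, and the 2 genes nearest in pattern to each called member. Sex was read from Ddx3y and Eif2s3y counts of at least 100; Xist, also planned, was not analysed here. Positions and transcript lengths came from GENCODE M21 (GRCm38) and promoters from RefSeq (GRCm38.p6).

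Alternatives were RLE scaling, DESeq2 1.42.0, limma-voom (limma 3.58.1) with sample weights, no filter, a CPM filter, a replicate block, sex as a covariate, only the libraries compared, wild-type PBS replicates 2 and 3 summed, and leaving out each library. Wild-type PBS replicates 2 and 3 were the closest pair of the series (mean chi-square per gene 3.93, against 13.01 or more in other pairs), which is still above sampling noise, so they were kept apart. Female libraries alone, and leaving out knockout PBS replicate 1 with wild-type LPS replicate 1, were chosen after seeing the data. Only the main edgeR fit of all 16 libraries was checked on simulated data, and the alternatives were not. The simulated counts had the same spread for every gene and no library apart from its group. Errors come from the spread between libraries; no molecular identifiers are stated.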

Additional observations from a re-analysis of the deposited data

Results flagged for a closer look

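In 40 groups of 4 libraries (10 genes in 4 groups), 4 held a library far from the other 3 by Dixon's criterion, where chance gives about 1 in 20. In wild-type LPS, replicate 1 was far below its group in Nfkb2 (3.82 CPM), in Bcl3 (0.336 CPM) and in Tnfaip3 (6.84 CPM). It was the same library in all 3 genes, so these are not independent. In wild-type PBS, replicate 4 was far above its group in Relb, at 6.95 CPM.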

How the results depend on the processing

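No result reversed its direction with a call under any alternative. In the wild-type comparison, 5 of 10 members were called. The count was 7 with limma-voom, Relb and Tnfaip3 being added, and 7 in females. It was 0 when only the libraries compared were fitted and 2 with wild-type PBS replicates 2 and 3 summed. Leaving out single libraries gave between 1 and 6. Bcl3 kept its call in 25 of 26 alternatives and Nfkb2 in 20 of 27. Genes called there (1394) numbered 2096 with DESeq2, 4684 with limma-voom, 0 with only the libraries compared, 670 with the summed pair, 3271 without knockout PBS replicate 1 and wild-type LPS replicate 1, 3832 in females, and 538 to 3380 without single libraries, the lowest without wild-type LPS replicate 3 and the highest without replicate 1. In the knockout, DESeq2 called 3 genes, and leaving out single libraries gave 0 to 1. Under PBS, 6 genes differed between genotypes, against 17 with DESeq2, 308 with limma-voom, 3 with the replicate block, 1 with the summed pair, 19 in females and from 1 to 9 without single libraries. Under LPS, 4 members were lower in the knockout, against 1 with only the libraries compared and 3 to 7 without single libraries. Genes called there (1935) numbered 4073 with limma-voom, 438 with only the libraries compared, 3907 without the 2 doubted libraries, and 858 to 4005 without single libraries, at the same 2 libraries. The interaction moved most: its 187 genes became 63 with RLE, 1278 with DESeq2, 4029 with limma-voom, 39 with no filter, 42 with the CPM filter, 0 with the replicate block, 40 with sex, 0 with the summed pair, 2400 without the 2 doubted libraries, 1820 in females and 0 to 2655 without single libraries. Members called in it were 2 with DESeq2, 4 with limma-voom, 4 without the 2 doubted libraries, 5 in females and 0 to 4 without single libraries. The narrower motif was found in 2 genes, against 6. The causes of these shifts were not tested, beyond the fewer libraries some fits hold.

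Replicate numbers were not shown to pair the samples: same-numbered wild-type LPS and PBS libraries had correlations of 0.364, 0.019, 0.072 and -0.042 in their deviations from the group means. With the replicate block 4 of the 10 members were called in wild type, Nfkbia being lost. Bcl3 was left out by the CPM filter, and depth limits it most, with 3 to 16 counts per library outside 3 libraries.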
